A study of Rattus norvegicus with 20 samples.

Results

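Transcripts of 5 genes were followed in calf muscle and abdominal fat of the same rats: the peroxisome proliferator-activated receptors Ppara (ENSRNOG00000021463), Ppard (ENSRNOG00000000503) and Pparg (ENSRNOG00000008839), the coactivator Ppargc1a (ENSRNOG00000004473), which encodes PGC-1 alpha, and Cebpa (ENSRNOG00000010918), which encodes C/EBP alpha. They were picked by Ensembl identifier, 5 of the 32883 genes in the deposited table, and all 5 passed the filter on low counts that left 13806 genes for testing. The samples were 10 gastrocnemius muscles and 10 pieces of abdominal white adipose tissue from 10 rats of the Fischer 344 x Brown Norway cross, obtained at 8 months of age, given 2 weeks to acclimate to a reversed light cycle and not treated further. Every sample is labelled male, but the series' design text counts 5 males and 5 females among the rats, and sex was therefore not compared. Messenger RNA was sequenced from bulk tissue, and libraries with the same number came from the same rat.

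PPARs are nuclear receptors that bind fatty acids and their derivatives and, paired with a retinoid X receptor, switch on genes of lipid handling. PPAR alpha is best known for fatty acid oxidation in liver, heart and muscle, PPAR delta is found in most tissues and drives fatty acid use in muscle, and PPAR gamma is the master regulator of fat cell formation and the target of the thiazolidinedione drugs. PGC-1 alpha is not a DNA-binding factor itself but joins PPARs and other receptors and raises mitochondrial gene expression, in muscle above all with exercise. C/EBP alpha is a leucine zipper factor that, in fat cells, maintains the adipocyte programme together with PPAR gamma, each raising the transcription of the other's gene.

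The promoters of Pparg, Cebpa and Ppargc1a are shown because these genes had the largest differences between the tissues, the first pair towards fat and the last towards muscle. RefSeq's promoter table (build GRCr8, not the rn6 build named for the deposited counts) held 5 starts for 4 of the 5 genes, 2 of them for Pparg. The 250 bases before each start are printed 5′ to 3′, all on the plus strand, at chr4:150096808-150097057 and chr4:150154522-150154771 for the 2 Pparg starts, chr1:96896334-96896583 for Cebpa and chr14:63634058-63634307 for Ppargc1a. Capitals mark matches to TATAAA, to TTGCNNAA, a form of the C/EBP site, or to TGACGTCA, the site of cyclic AMP response element binding factors, and the first Pparg start held none of them.

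Pparg start 1: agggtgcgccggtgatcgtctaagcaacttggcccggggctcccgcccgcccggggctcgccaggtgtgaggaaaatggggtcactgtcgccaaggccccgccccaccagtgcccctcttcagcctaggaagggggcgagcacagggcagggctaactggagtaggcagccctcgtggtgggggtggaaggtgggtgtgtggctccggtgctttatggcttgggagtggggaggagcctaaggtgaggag

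Pparg start 2: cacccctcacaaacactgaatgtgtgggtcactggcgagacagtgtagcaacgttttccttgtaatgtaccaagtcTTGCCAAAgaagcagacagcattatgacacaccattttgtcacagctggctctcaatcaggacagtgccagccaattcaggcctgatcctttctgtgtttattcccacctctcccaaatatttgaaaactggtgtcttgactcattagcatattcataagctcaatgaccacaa

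Cebpa: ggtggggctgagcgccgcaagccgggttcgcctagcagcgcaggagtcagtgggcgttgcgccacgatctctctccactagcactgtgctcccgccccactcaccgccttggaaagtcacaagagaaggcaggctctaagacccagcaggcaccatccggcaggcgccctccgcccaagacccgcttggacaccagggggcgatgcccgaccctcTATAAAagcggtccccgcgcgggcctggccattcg

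Ppargc1a: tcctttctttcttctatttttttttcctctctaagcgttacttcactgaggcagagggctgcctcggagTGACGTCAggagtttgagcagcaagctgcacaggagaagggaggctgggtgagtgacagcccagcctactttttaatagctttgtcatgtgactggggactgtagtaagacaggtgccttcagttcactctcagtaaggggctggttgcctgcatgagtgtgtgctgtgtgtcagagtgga

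Both strands were searched for these motifs, for AGGTCA (the core to which PPARs and other nuclear receptors bind), for a direct repeat of AGGTCA with 1 base between, as PPARs bind it, and for GGGCGG, the core of the SP factor site. TATAAA lay 35 to 30 bases before the Cebpa start and in 12.9% of all 33469 promoters of this length. TTGCCAAA, a match to TTGCNNAA, lay 174 to 167 bases before the second Pparg start, and TTGCNNAA was found in 9.22% of all promoters. TGACGTCA lay 181 to 174 bases before the Ppargc1a start and in 1.59% of all promoters. GGGCGG, found in 30.5% of all promoters, matched 3 times at the first Pparg start (the first 2 matches overlap), 2 times at Cebpa and 2 times at Ppara, whose promoter is not printed. None of the 5 promoters held AGGTCA (14.1% of all promoters) or its direct repeat (0.0508%). The promoters differed in base composition: G and C made up 67.2% at the first Pparg start, 44.8% at the second, 67.2% at Cebpa, 50.4% at Ppargc1a and 76.0% at Ppara, against a median of 51.2%. The counts are per gene and do not say which of the Pparg starts was used in either tissue.

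Muscle libraries held 8446548 to 20141701 counts in total, and adipose libraries 11067641 to 25904168. Several libraries stood apart and are named beside the results they touch. In adipose libraries 1, 3 and 5 the 170 genes nearly restricted to muscle (at least 20 CPM by library totals in muscle and 100 times the adipose median) reached medians of 1.41%, 1.57% and 0.454% of what they were in muscle, against 0.0265% to 0.149% in the other 7. Adipose library 4 was the highest or the lowest of the adipose libraries for 40.4% of all tested genes, and muscle library 2 for 43.6% within muscle. The identifiers are not paired with names in the files used here, so the tissue labels were not checked against marker genes. Levels are given as CPM, read counts scaled to a common library size, with TMM factors, which align the bulk of genes between libraries. They are not divided by transcript length, for which no value was at hand, so a level is compared between tissues and never between genes. In bulk tissue, fewer cells of a type and less RNA per cell cannot be told apart.

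The question of the tissue comparison was in which of the 2 tissues each gene was higher and by how much. Fat held more Pparg and Cebpa and muscle more Ppargc1a, while Ppara and Ppard passed the test towards muscle with TMM factors but not with library totals. At an adjusted p below 0.05 (edgeR's quasi-likelihood test over all genes), 3 members were called towards muscle and 2 towards fat, where 37.6% and 42.2% of all tested genes were called in these directions. A call alone is therefore no result about these genes, and the sizes follow gene by gene.

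Pparg reached 73.4 CPM in the lowest, 143 in the median and 198 in the highest adipose library. In muscle it ranged from 0.429 to 3.49 CPM with a median of 1.402, which rests on 4 to 43 reads per library. No muscle library came near an adipose library. Mean levels were 142 ± 32.3 CPM in fat against 1.54 ± 0.937 CPM in muscle (SD, n = 10), a ratio of 92.2. Muscle over fat was -6.48 on the log2 scale (SE 0.29; adjusted p = 6.81e-15, edgeR), and 1.07% of tested genes lay at least as far towards adipose tissue.

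Cebpa showed the larger difference of the pair that maintains the fat cell programme. It ranged from 196 to 613 CPM in adipose libraries with a median of 435, and from 1.49 to 5.02 CPM in muscle with a median of 2.73. The groups were again far apart, with means of 447 ± 118 CPM in fat against 2.91 ± 1.02 CPM in muscle (SD, n = 10), a ratio of 154. On the log2 scale muscle over fat was -7.25 (SE 0.24; adjusted p = 1.13e-16, edgeR), and 0.753% of tested genes lay as far towards adipose tissue.

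The few Pparg and Cebpa reads of muscle were set beside those of other fat genes. A set of 152 other genes nearly restricted to adipose tissue, chosen as the muscle set was, had in the muscle libraries medians of 0.202% to 0.533% of their adipose level by library totals. Pparg stood at 0.132% to 1.21% of its adipose median and Cebpa at 0.138% to 0.458%. Both genes meet the criterion that chose the set, so a likeness to it is built in and supports nothing. The part of fat cells within the muscle samples in these levels was not tested.

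Ppargc1a ran the other way. Muscle libraries held 17.3 CPM at the lowest, 30.8 at the median and 54.2 at the highest, and adipose libraries 0.115, 0.515 and 2.98. Each muscle library exceeded each adipose library, and muscle was higher in 10 of 10 animals. Means of 34.4 ± 11.7 CPM in muscle stood against 0.739 ± 0.852 CPM in fat (SD, n = 10), a ratio of 46.5, and muscle over fat was 5.49 on the log2 scale (SE 0.45; adjusted p = 2.06e-10, edgeR). Tested genes at least as far towards muscle made up 2.59%.

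Adipose library 4 stood above the other adipose libraries in Ppargc1a, whose median over the other 9 was 0.473 CPM. That library held 2.98 CPM, or 6.31 times the median of the other 9, which ranged from 0.115 to 1.19. Without it the log2 fold change was 6.13 (SE 0.34; adjusted p = 5.09e-13, edgeR) and the ratio of the means 70.2. By library totals, Ppargc1a in the adipose libraries stood at 0.898% to 30.9% of its muscle median. In adipose libraries 1, 3 and 5, where the genes nearly restricted to muscle were raised, it stood at 1.38%, 4.73% and 4.04%. In library 4 it stood at 30.9%, where the median of those genes was 0.149%. Their upper quartile there was 0.933%, against 1.85%, 2.04% and 0.732% in libraries 1, 3 and 5. The most raised of those genes reached at least 4.60% in library 4, against 2.80%, 2.97% and 1.29% in libraries 1, 3 and 5. The part of muscle tissue in the Ppargc1a level of library 4 was not tested.

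No overlap between the tissues was seen for Ppargc1a, Pparg and Cebpa. Such a separation was found in 21.1% of all tested genes towards muscle and in 24.4% towards adipose tissue. The plot of levels by library shows the 3 separated genes beside the 2 that overlapped.

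**Figure D1:**
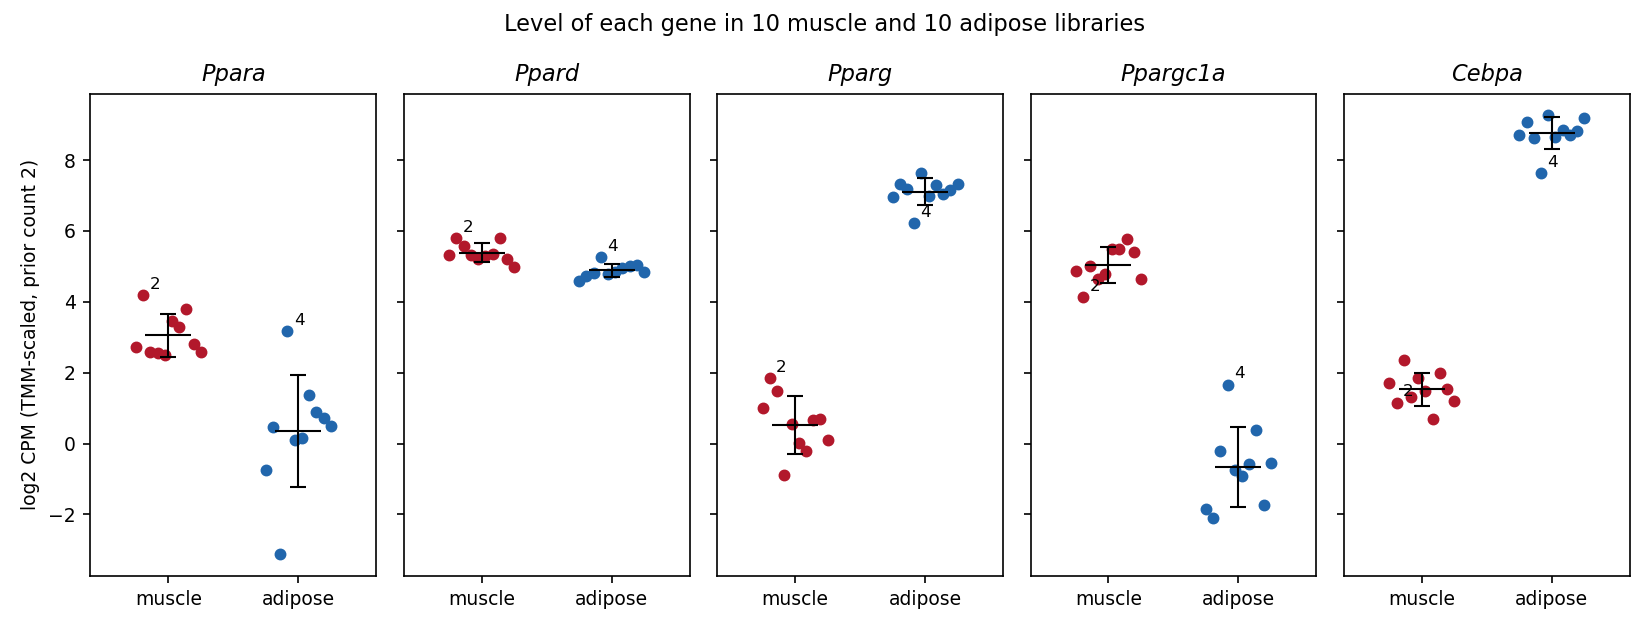
Level of each gene as log2 CPM (vertical axis, TMM-scaled, prior count 2) in 10 muscle (red) and 10 adipose (blue) libraries, with 1 point per library in order of animal and the mean ± SD as black bars. The numbers mark muscle library 2 and adipose library 4. Pparg, Ppargc1a and Cebpa do not overlap between the tissues, and adipose library 4 is at the edge of the adipose points in each panel.

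Ppara, the receptor tied to fatty acid oxidation, was scarce in both tissues. Muscle libraries held 5.49 to 18.2 CPM with a median of 6.70, and adipose libraries 0 to 8.74 CPM with a median of 1.28. All 10 muscle libraries lay above 9 of the adipose libraries, and adipose library 4, at 8.74 CPM, lay above 6 of the muscle libraries. Adipose library 3 had no Ppara read among 11067641, which allows up to 0.225 CPM at 3 counts. With TMM factors the muscle library of the same animal was thus at least 26.1-fold higher. By library totals the limit was 0.271 CPM, beside 3.67 CPM in that muscle library. Such limits cover counting error only.

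Mean Ppara was 8.90 ± 4.27 CPM in muscle against 1.95 ± 2.48 CPM in fat (SD, n = 10), and muscle was higher in 9 of 10 animals. The log2 fold change was 2.16 (SE 0.50; adjusted p = 0.000517, edgeR), and 9.11% of tested genes lay at least as far towards muscle. Without adipose library 4 it was 2.87 (SE 0.39; adjusted p = 7.72e-07, edgeR). With library totals in place of TMM factors it was 0.75 (SE 0.55; adjusted p = 0.204, edgeR), which did not pass the test.

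Ppard, the receptor found in most tissues, differed least. Its muscle values spanned 31.7 to 55.7 CPM with a median of 40.05, and its adipose values 23.9 to 37.4 CPM with a median of 28.6. The ranges overlapped: 7 muscle libraries lay above the highest adipose library, number 4. Muscle was higher in 10 of 10 animals, with means of 42.5 ± 8.00 and 29.5 ± 3.797 CPM (SD, n = 10) and a log2 difference of 0.52 (SE 0.11; adjusted p = 0.000126, edgeR). This direction turned with the scaling: with library totals the log2 fold change was -0.79 (SE 0.15; adjusted p = 3.08e-05, edgeR), and adipose tissue was higher in 9 of 10 animals.

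Library totals moved the median of all tested genes by -1.31 on the log2 scale, from -0.09 to -1.39, and called 12.3% of genes towards muscle and 74.2% towards fat. Relative to that median, each member stood at nearly the same place under either scaling. A change of scaling moves all genes by nearly the same amount, so this likeness is built in and favours neither scaling. Ppard lay 0.61 above it with TMM factors and 0.61 with library totals, Ppara 2.24 and 2.14, and Ppargc1a 5.58 and 5.48. Pparg lay at -6.39 and -6.35, and Cebpa at -7.16 and -7.15. The plot of fold changes by scaling shows the turn of Ppard against the small movement of the large differences.

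**Figure D2:**
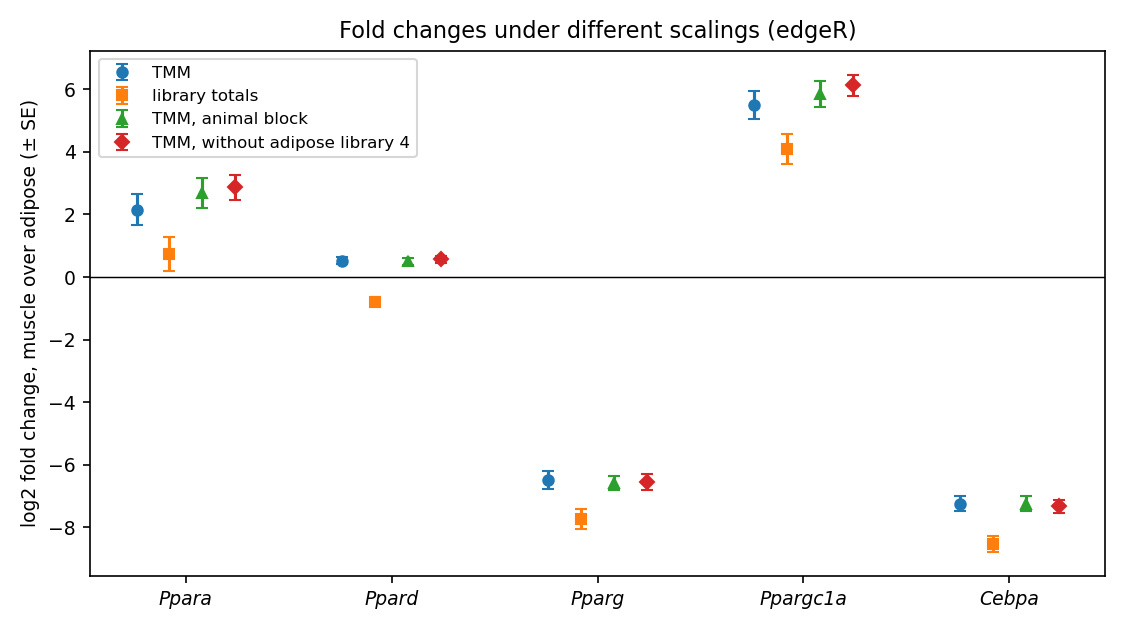
Log2 fold change of muscle over adipose tissue (vertical axis, with SE as bars, edgeR) for each gene with TMM factors, with library totals, with the animal as a block and without adipose library 4. Ppard changes sign with library totals, from 0.52 to -0.79, while Pparg, Cebpa and Ppargc1a keep theirs.

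Which receptor each tissue favoured was asked with ratios of reads within a library. The scaling of a library cancels in such a ratio, and gene length cancels when the ratio is compared between tissues. Relative to Pparg, muscle held more Ppard and Ppara reads than fat did, and relative to Ppard it held more Ppara reads than fat did. All 10 pairs of the 5 genes were compared within animals, flipping the sign of each of the 10 differences in all ways (exact permutation test, two-sided), which can give no p below 0.00195, with Benjamini-Hochberg adjustment over the 10 pairs.

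The log2 ratio of Ppard to Pparg reads was 3.98 to 6.37 across muscle libraries and -2.84 to -0.97 across adipose libraries. No library of either tissue came near the other group. The shift within animals was 7.17 ± 0.50 on the log2 scale (SD, n = 10), or 144-fold, in the same direction in 10 of 10 animals (exact permutation p = 0.00195, adjusted 0.00279). It was the most even of the shifts between animals, running from 6.52 to 7.95.

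The log2 ratio of Ppara to Pparg was 1.14 to 3.61 in muscle and -11.9 to -3.07 in adipose tissue. The groups were apart here as well, with a mean shift of 9.60 ± 1.58 (SD, n = 10; exact permutation p = 0.00195, adjusted 0.00279). Its extremes were animal 3, at 13.05, whose adipose library had no Ppara read, and animal 4, at 6.67. Over the other 8 animals it ran from 8.63 to 10.5.

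The log2 ratio of Ppara to Ppard showed that muscle leaned further to Ppara than fat did, in 9 of 10 animals. Muscle libraries lay between -3.002 and -1.61 and adipose libraries between -9.53 and -2.10, where the highest value was that of library 4. The mean shift was 2.43 ± 1.78 (SD, n = 10; exact permutation p = 0.00391, adjusted 0.00434). Animal 4 stood at -0.67 and animal 3 at 6.53, a value that depends on the 0.5 added to its count of 0. The other 8 animals lay between 1.58 and 2.98, with a mean of 2.31 ± 0.51 (SD, n = 8).

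Ratios with the coactivator set Ppargc1a apart from all 3 receptors. The log2 ratio of Ppard to Ppargc1a was 5.46 ± 1.25 lower in muscle than in adipose tissue (SD, n = 10), lower in 10 of 10 animals (exact permutation p = 0.00195, adjusted 0.00279). That of Ppara to Ppargc1a changed by -3.03 ± 1.96 (SD, n = 10), lower in 9 of 10 animals (exact permutation p = 0.00391, adjusted 0.00434). The exception was animal 3 at 2.02, with the adipose count of 0, and without that animal the shift was -3.59 ± 0.893 (SD, n = 9; exact permutation, adjusted p = 0.00488). Muscle thus held more Ppargc1a reads per Ppara read in the 9 animals where Ppara was detected in both tissues. The shift of the Pparg to Ppargc1a ratio was -12.6 ± 1.27 and that of Ppargc1a to Cebpa 13.2 ± 1.73 (SD, n = 10), each in 10 of 10 animals (exact permutation p = 0.00195, adjusted 0.00279).

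Pparg and Cebpa kept nearly the same ratio in every adipose library. Their log2 ratio lay between -1.86 and -1.41 there, with an SD of 0.139, the smallest SD of the 10 ratios in either tissue. In muscle, where both rest on few reads, it lay between -2.33 and 0.69, with an SD of 0.766. The shift between the tissues was 0.60 ± 0.84 (SD, n = 10), higher in muscle in 9 of 10 animals (exact permutation p = 0.0391, adjusted 0.0391). Leaving out any of animals 1, 2, 3, 5, 7, 8, 9 or 10 ended this call, with adjusted p of 0.0547 to 0.0781 (exact permutation), and without animal 2 the shift was 0.39. It was kept without animal 6 (exact permutation, adjusted p = 0.0469). Without animal 4, the only animal with a shift in the other direction (-0.92), the shift was 0.77 (exact permutation, adjusted p = 0.00434).

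**Figure D3:**
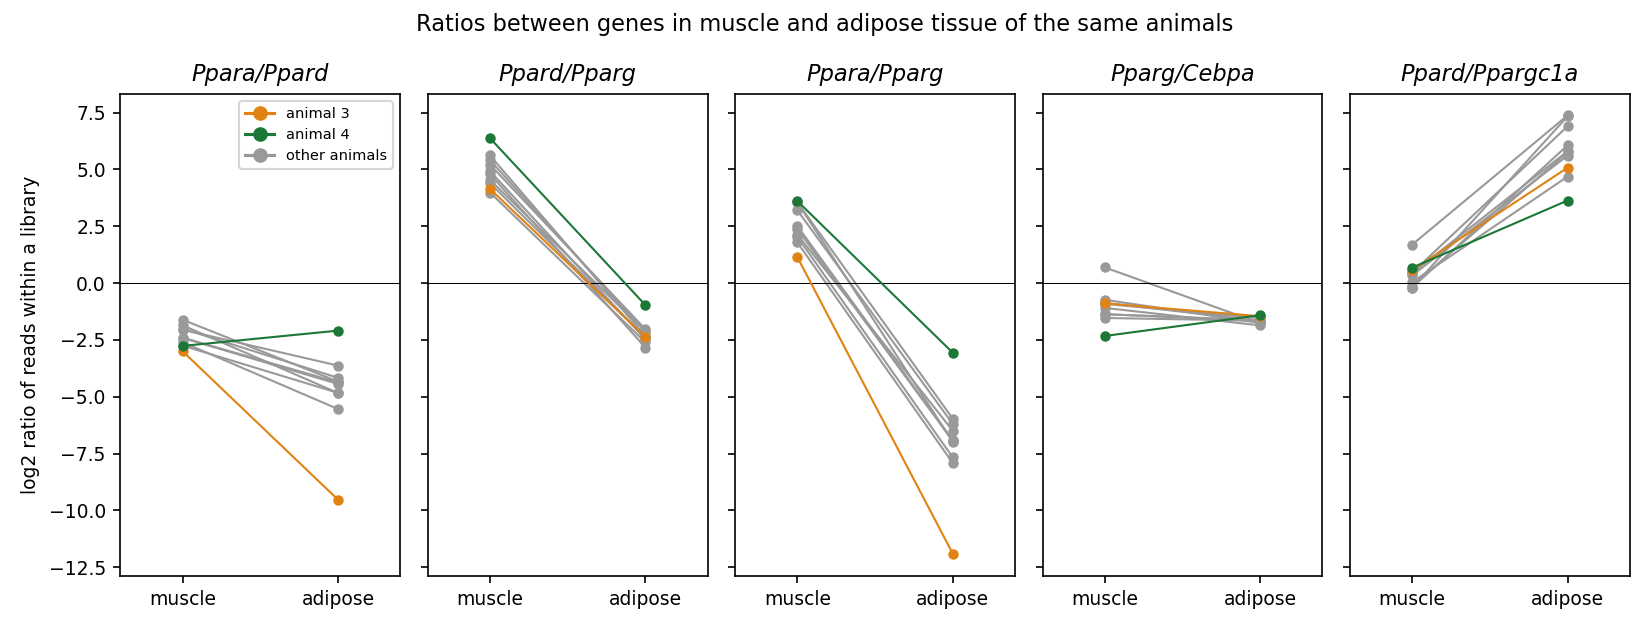
Log2 ratio of reads of 2 genes within a library (vertical axis) in muscle and adipose tissue, with 1 line per animal. Animal 3 (orange) has no Ppara read in adipose tissue, and animal 4 (green) has the highest Ppara to Ppard and Ppard to Pparg ratios of the adipose libraries. Each line falls for Ppard/Pparg and Ppara/Pparg, each rises for Ppard/Ppargc1a, and the adipose points of Pparg/Cebpa lie close together.

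The same balance was expressed as shares of the reads of the 3 receptors, which numbered 276 to 953 per muscle library and 2292 to 9581 per adipose library. Pparg took 80.97% ± 7.25 of them in fat against 2.82% ± 1.30 in muscle (SD, n = 10). Ppard fell from 80.9% ± 4.29 in muscle to 17.7% ± 5.23 in fat (SD, n = 10). Ppara likewise fell from 16.3% ± 4.28 in muscle to 1.33% ± 2.13 in fat (SD, n = 10). Each share differed in the same direction in 10 of 10 animals (exact permutation test within animals, p = 0.00195, adjusted over the 3 shares 0.00195). Most receptor reads were thus Ppard reads in each muscle library, at 72.0% to 86.5%, and Pparg reads in each adipose library, at 61.4% to 87.4%. These are shares of reads without correction for transcript length and not shares of molecules. The 3 shares of a library add up to its whole, so the 3 tests are not separate results. A lower share of Ppard or Ppara in fat does not measure a lower level of that gene.

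Adipose library 4 had the lowest Pparg share of its tissue, 61.4%, and the highest shares of Ppard, 31.3%, and Ppara, 7.31%. Over all 10 adipose libraries the median Ppara share was 0.679%. In muscle the Ppara share was highest in library 2, at 23.5%, and lowest in library 3, at 10.5%.

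**Figure D4:**
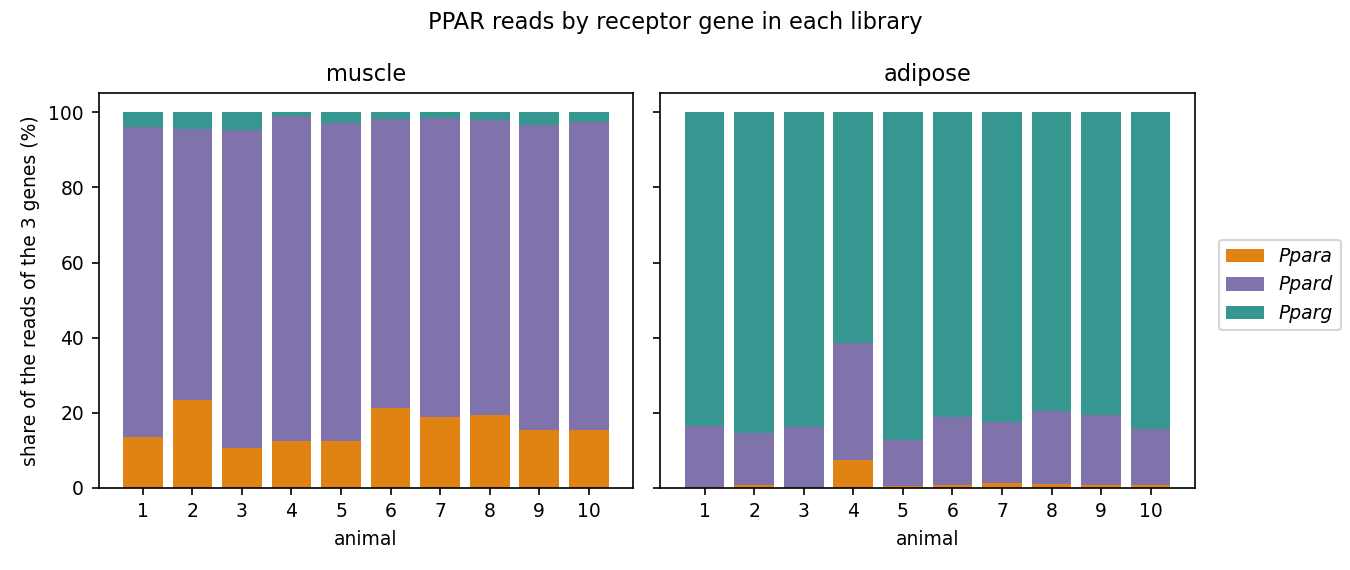
Share of the reads of Ppara, Ppard and Pparg (vertical axis, percent of the reads of the 3 genes) in each muscle library (left) and each adipose library (right), by animal. Ppard fills 72.0% to 86.5% of the muscle bars and Pparg 61.4% to 87.4% of the adipose bars, with adipose library 4 lowest.

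Animals differed in these genes to different degrees. In adipose tissue, with TMM factors, Ppard was among the steadiest genes. Its SD was 0.186 on the log2 scale, and 8.14% of tested genes had a lower SD. Pparg, at 0.369, and Cebpa, at 0.452, were near the median of all tested genes, 0.406. Ppara, at 1.59, and Ppargc1a, at 1.13, varied more than 98.6% and 95.4% of tested genes. Without library 4 their SDs were 1.32 and 0.828, and adipose library 3 had no Ppara read. With library totals the SD in adipose tissue was 0.313 for Ppard, beside 0.303 for Pparg and 0.398 for Cebpa. In muscle, with TMM factors, the SD was 0.261 for Ppard, 0.507 for Ppargc1a and 0.6002 for Ppara, beside a median of 0.355. The SD was 0.477 for Cebpa and 0.810 for Pparg, the most variable of the 5 in muscle, and 88.6% of tested genes had a lower SD than Pparg. The largest SDs rest on low counts. Adipose libraries held 0 to 240 Ppara and 2.25 to 82.5 Ppargc1a reads, and muscle libraries 4 to 43 Pparg reads. Counting error adds to an SD at such counts, and the tested genes were not matched for level. Its part was not tested.

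Adipose library 4 was the extreme adipose library for all 5 genes. It held the highest Ppara, Ppard and Ppargc1a and the lowest Pparg and Cebpa, with TMM factors as with library totals. Ppara stood at 6.91 times and Ppard at 1.31 times the median of the other 9 libraries, while the others' median was 1.96 times the level of library 4 for Pparg and 2.30 times for Cebpa. Without library 4 the SD of Cebpa between adipose libraries fell to 0.240 and that of Pparg to 0.211. The library was an extreme for 40.4% of all tested genes, its TMM factor of 1.98 was the highest of the 20, and the highest 10% of the muscle-restricted genes reached at least 4.60% of their muscle level in it. The part of these features in the values of the 5 genes was not tested.

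Muscle library 2 held the highest Ppara, at 18.2 CPM, Ppard, at 55.7, and Pparg, at 3.49, and the lowest Ppargc1a, at 17.3, of the muscle libraries. The 152 adipose-restricted genes were also highest in this library by library totals. Their median was 0.533% of their adipose level, against 0.202% to 0.393% in the other 9. Of all tested genes, 41.5% were highest in this library within muscle by library totals. Cebpa was not raised with them: by library totals it stood at 0.230% of its adipose median, beside a median of 0.241% over all muscle libraries. With TMM factors Cebpa was 2.11 CPM, or 0.756 times the median of the other 9. The part of fat cells in the Pparg level of this library was not tested. Ppara was 2.78 times and Ppargc1a 0.537 times the median of the other 9. Ppard in this library barely exceeded the next value, 55.6 CPM. Without muscle library 2 the log2 fold change was 1.99 for Ppara (SE 0.51; adjusted p = 0.00119, edgeR) and 5.59 for Ppargc1a (SE 0.44; adjusted p = 2.5e-10, edgeR).

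Whether the genes vary together between animals was asked with 25 correlations of log2 CPM over 10 animals: 10 pairs of genes in each tissue, and each gene between the tissues. After Benjamini-Hochberg adjustment 1 relation passed, Pparg with Cebpa in adipose tissue, and 5 had an unadjusted permutation p below 0.05. For Pparg and Cebpa, r was 0.96 (permutation p = 0.00011, adjusted 0.00275) and rho 0.84 (permutation p = 0.00378, adjusted 0.0884, which did not pass). Among 10104 genes with at least 5 CPM in adipose tissue, Cebpa had the highest r with Pparg, and Pparg ranked 4 for r with Cebpa. Both values of a library share its scaling, and the median r of all those genes with Pparg was 0.07.

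Both genes were lowest in adipose library 4. Without it r was 0.86 over 9 libraries (permutation p = 0.0012, adjusted 0.03) and Cebpa ranked 7. This adjustment kept the p-values of the other relations from all libraries. Over the 9 libraries rho was 0.78 (permutation p = 0.0166, not adjusted). Without libraries 4 and 5, those farthest from the Pparg median, r was 0.78 over 8 libraries (permutation p = 0.0216, adjusted 0.135) and Cebpa ranked 87. The call on r was thus kept without library 4 and lost without both. With 8 libraries the test is also weaker, so the loss does not show that the call rests on these 2 libraries alone. In muscle the same pair had r = 0.45 and rho = 0.39 (permutation p = 0.194 and 0.265, adjusted 0.404 and 0.670), and without libraries 2 and 4 r was 0.87 (permutation p = 0.00541, adjusted 0.0676).

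**Figure D5:**
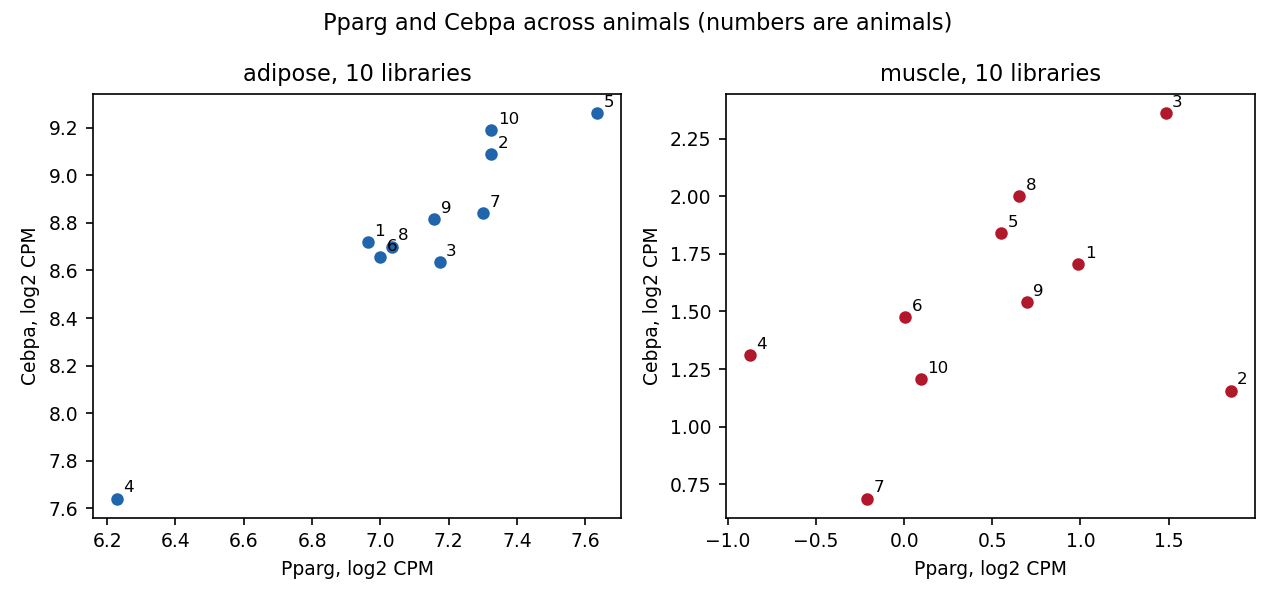
Level of Cebpa (vertical axis, log2 CPM) against Pparg (horizontal axis, log2 CPM) in 10 adipose (left) and 10 muscle (right) libraries, with 1 numbered point per animal. The adipose points rise together (r = 0.96), with library 4 alone at the lower left. Muscle library 2 has the highest Pparg of the muscle points and a Cebpa level below their median.

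No relation of Ppargc1a with Ppara passed the test in muscle. Over all 10 libraries r was 0.10 and rho 0.37 (permutation p = 0.783 and 0.295, adjusted 0.880 and 0.670). Without animals 2 and 8, those farthest from the Ppara median, r was 0.86 (permutation p = 0.00282, adjusted 0.0676), which did not pass after adjustment. Library 2 combined the highest Ppara with the lowest Ppargc1a. Ppara and Ppard in muscle had r = 0.73 and rho = 0.52 (permutation p = 0.0179 and 0.134, adjusted 0.149 and 0.670), and 0.13 without animals 2 and 8 (permutation p = 0.704, adjusted 0.880).

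In adipose tissue Ppara and Ppard had r = 0.70 and rho = 0.81 (permutation p = 0.0297 and 0.00707, adjusted 0.170 and 0.0884). Without animals 3 and 4 r was 0.84 (permutation p = 0.0098, adjusted 0.0817), and with library totals it was 0.90 and passed (permutation, adjusted p = 0.0319). Between the tissues of an animal, r ran from -0.09 for Ppard to 0.50 for Pparg, and none of the 5 passed. For Pparg across tissues rho was 0.20 (permutation p = 0.14 for r and 0.584 for rho, adjusted 0.349 and 0.772), and r was -0.20 without animals 2 and 4 (permutation p = 0.625, adjusted 0.878). A relation between the levels in fat and in muscle of the same rats was not detectable at this number of animals.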

How the data were processed

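The authors deposited 1 table of estimated counts per gene for 20 libraries, made from sequencing reads and not normalised. Tools named in the submitters' processing notes are bcl2fastq, STAR and featureCounts, with the build rn6. For the annotation, strand setting and treatment of multiply mapping reads, the sources used here give nothing, so reads of genes overlapping on opposite strands cannot be told apart. Of the values above 0, 74.7% were not whole (tolerance 0.005). They were rounded for the count tests and left unrounded for ratios.

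Samples were grouped by title, and columns matched to samples by name. The count tests used edgeR 4.0.16 under R 4.3.3 (filterByExpr, TMM, robust quasi-likelihood test, Benjamini-Hochberg over 13806 genes, no block), with limma 3.58.1 (voom) and DESeq2 1.42.0 as alternatives. The scripts were tested on simulated data. With no block, the edgeR p-values measure the spread between rats within each tissue and do not use the pairing. The exact permutation tests of ratios and shares use the differences within rats.

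The same number marks the same animal, per the titles and the design text. Deviations from the tissue means over 8291 genes correlated at -0.22 to 0.42 within animals (median 0.12, against -0.02 between animals). The best match was the other tissue of the same animal in 2 of 10 cases, so the pairing rests on the labels.

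The members and lists were chosen with earlier results of these data known. Gene names came with the choice of identifiers; 0 identifiers matched the reference table, so 6 pathway lists (95 genes), 8 marker lists and the rule naming the most similar genes were not run. The named genes are the 5 members. Ratios used a pseudocount of 0.5 and log2 CPM a prior count of 2. Correlations used 100000 permutations. The analyses without adipose library 4, the comparison with restricted genes and DESeq2 without replacement of outlying counts were chosen after seeing the data.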

Additional observations from a re-analysis of the deposited data

Results flagged for a closer look

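For 20 groups of 10 values (5 genes in each tissue, and 10 ratio shifts between tissues), the gap of the highest or the lowest value to its neighbour was divided by the range and set against Dixon's 95% critical value for 10 samples. It was exceeded in 5 groups, and chance gives about 1 in 20. The groups share libraries and genes.

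Adipose library 4 was set apart by its low Pparg, at 6.23 log2 CPM beside 6.96 for the next library, and by its low Cebpa, at 7.64 beside 8.63. Animal 4 was also set apart by its shift of the Ppara to Cebpa log2 ratio, 5.76 beside 9.42 for the next animal. Animal 3 was set apart by its shift of the Ppara to Ppard log2 ratio, 6.53 beside 2.98, and of the Ppara to Ppargc1a log2 ratio, 2.02 beside -2.48. Both values of animal 3 rest on the count of 0 for Ppara in its adipose library and on the 0.5 added to it.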

How the results depend on the processing

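Library totals changed the balance of directions. They called 1692 genes towards muscle and 10240 towards fat, beside 5187 and 5824 with TMM factors, or 14.2% of calls towards muscle beside 47.1%. With library totals the log2 fold change of Ppard reversed to -0.79 (edgeR adjusted p = 3.08e-05) and that of Ppara, 0.75, no longer passed (edgeR adjusted p = 0.204). This follows from the scaling, which moved all genes. The other 108 fold changes of the 5 genes, over all alternatives, kept their direction and call. These include the fit with the animal as a replicate block, which gave 2.70 for Ppara, 0.51 for Ppard, -6.58 for Pparg, 5.86 for Ppargc1a and -7.25 for Cebpa and changed no call. Without a filter 13894 genes were called, and with DESeq2 13238. The shift of Pparg to Cebpa no longer passed without animals 1, 3 and 5 (0.59), without animal 2 (0.39) and in 8 of the 10 analyses that left out 1 animal each (over all 10 such analyses the shift was 0.39 to 0.77). The cause was not tested. The other 130 alternative values of the ratios and all 39 of the shares kept their call, also without pairing of the tissues by animal (no replicate block). Of the correlations, 2 passed with library totals (Ppara with Ppard in adipose tissue, r = 0.90, was added) and 0 without the 2 animals farthest from the median (Pparg with Cebpa, r = 0.78; 4 had an unadjusted permutation p below 0.05). The latter analyses have 8 animals. Depth limits Pparg and Cebpa in muscle and Ppara and Ppargc1a in adipose tissue, where some libraries hold fewer than 10 reads.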
